A study of Mus musculus with 14 samples.

Results

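Cytochrome P450 families 1 to 4 are haem enzymes of the endoplasmic reticulum that oxidise drugs, steroids, fatty acids and environmental chemicals. The members were the genes whose symbol starts with Cyp1, Cyp2, Cyp3 or Cyp4 followed by a letter and a number, each read by its probe set annotated to that gene alone. This gave 69 genes of the 19938 measured. Family 1 had 3 members, family 2 had 44, family 3 had 6 and family 4 had 16. The largest subfamilies were Cyp2c with 13 members, Cyp2d with 10 and Cyp4f with 9. A further 9 symbols of these families, among them Cyp2a4, Cyp2a5 and Cyp4v3, were read only by probe sets annotated to several genes and are not members.

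P450 enzymes receive electrons from NADPH through P450 oxidoreductase and, for some reactions, cytochrome b5, and need haem made by the pathway that starts with Alas1. Hepatocytes hold the fullest set, enterocytes of the small intestine hold another, and several members are known mainly from lung, kidney or skin. Transcription of many members is driven by receptors that sense foreign or endogenous chemicals: the aryl hydrocarbon receptor Ahr for family 1, the constitutive androstane receptor Nr1i3 for Cyp2b, the pregnane X receptor Nr1i2 for Cyp3a and the fatty acid receptor Ppara for Cyp4a, together with liver factors such as Hnf4a and Cebpa.

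The study measured RNA from C57BL/6 mice on 14 Affymetrix gene arrays, 2 in each of 7 groups. Whole tissue of the gallbladder, the liver and the small intestine was set beside organoids of each, that is, epithelium kept in culture inside a gel. The labels describe 1 culture recipe for organoids: Matrigel, and AdDMEM/F12 medium with B27, N2, N-acetylcysteine, EGF, FGF10, nicotinamide, HGF, and conditioned media that supply R-spondin 1, an agonist of Wnt signalling, and noggin, an inhibitor of BMP signalling. Differentiated gallbladder organoids were kept for 2 weeks without R-spondin 1, noggin and nicotinamide, so these factors were withdrawn together. The labels give no age or sex, and do not say whether the 2 replicates are different animals or 1 source. A p-value therefore measures only the spread between these samples, which may be technical. The tissue arrays are exceptions. In gallbladder tissue, sex chromosome transcripts given below show that the 2 arrays are not repeats of 1 sample. Intestine tissue arrays differed widely in pancreatic acinar markers, given below, and liver tissue arrays read 8.99 and 11.91 for the regulator Dbp. These pairs are therefore unlikely to be repeats of 1 RNA, but whether each pair comes from 1 animal is not known. All levels below are log2 signals as the authors deposited them, made with robust multi-array average (RMA), and precision is limited by having 2 arrays a group.

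Organoid replicates lay close together, and tissue replicates did not. Pooled over the members, the replicate SD ran from 0.13 to 0.21 log2 units for organoids and was 0.36 in liver tissue, 0.82 in intestine tissue and 1.30 in gallbladder tissue. In gallbladder tissue, Xist, which is transcribed from the inactive X chromosome of females, read 13.51 in replicate 1 and 5.46 in replicate 2, and the Y-linked gene Eif2s3y read 3.72 and 10.02. On the other 4 tissue arrays Xist read 11.57 to 12.27 and Eif2s3y 3.77 to 3.95. Organoid group means were at least 11.83 for Xist and at most 3.97 for Eif2s3y. Gallbladder tissue replicate 2 was thus the only array with low Xist and high Eif2s3y. Every comparison that uses gallbladder tissue, organoids against tissue included, sets it against arrays with high Xist. Sex is therefore partly mixed with culture or organ there. Hepatocyte markers other than P450 genes had a median of 12.55 and 13.75 in gallbladder tissue replicates 1 and 2, against 14.11 and 14.03 in liver tissue. Of these 15 markers 14 were higher in gallbladder tissue replicate 2, while Alb read 14.30 in both. In intestine tissue replicate 2 the median of 5 pancreatic acinar markers was 12.89, against 6.54 in replicate 1. Alb there read 9.90 against 8.05. The part of these differences in the results below was not tested beyond the values given without each array. Because whole tissue and cultures were measured in bulk, fewer cells of a type and less RNA per cell cannot be told apart.

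Liver tissue was the group in which most members peaked. The mean signal was highest in liver tissue for 38 of the 69 members, in intestine tissue for 11, in intestine organoids for 10, in liver organoids for 4, and in gallbladder organoids and gallbladder tissue for 3 each. The share of all genes that peaked in each group was not computed. Liver tissue means were above 10 for 55.07% of the members and 19.57% of all genes. The median member read 10.62 in liver tissue, 8.59 in gallbladder tissue, 7.06 in intestine tissue and 7.41 in intestine organoids. In the biliary cultures the median was 6.19 in gallbladder organoids, 6.50 in differentiated gallbladder organoids and 6.34 in liver organoids, while the median of all genes stayed between 7.76 and 7.88 in every group. The group means of 30 members spanned over 6 log2 units, and those of 11 members spanned less than 1. A signal of 14 or more, where the scale of an array compresses differences, was reached by Cyp2d26, Cyp2e1 and Cyp2f2.

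**Figure D1:**
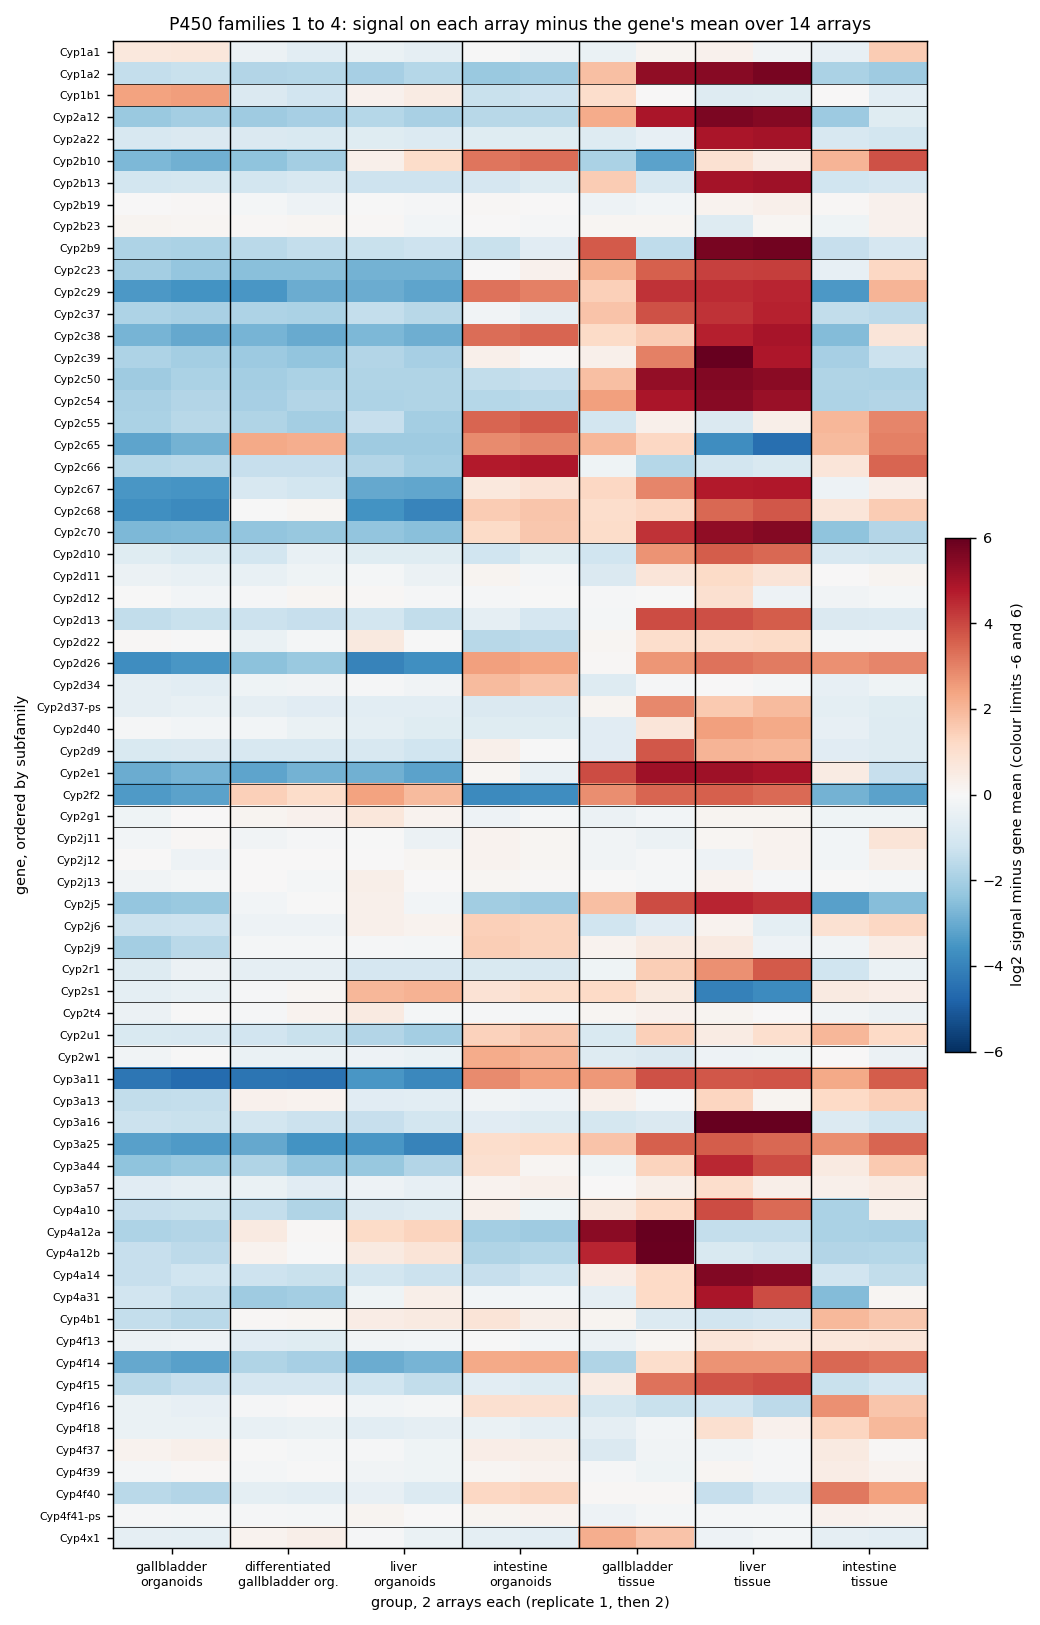
Log2 signal of the 69 P450 genes (rows, by subfamily) on each of the 14 arrays (columns, replicate 1 then 2 of each group), as the difference from the gene's own mean over the arrays, with colours limited to -6 and 6. Liver tissue has the highest mean in 38 members, though some of these hardly vary, such as Cyp2b19 and Cyp2d12, whose group means span 0.47 and 0.49. Cyp4a12a and Cyp4a12b stand out in gallbladder tissue.

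After 2 weeks without R-spondin 1, noggin and nicotinamide, 13 members were higher in gallbladder organoids and 1 was lower. Genes were called at an adjusted p below 0.05 from limma's moderated test, with Benjamini-Hochberg adjustment over all genes. Of all genes tested, 2.8% were called higher and 1.93% lower in this comparison. The median difference was 0.06 over the members and -0.04 over all genes. The members that rose were 3 of the 13 Cyp2c genes, 3 of the 6 Cyp2j genes, 2 of the 5 Cyp4a genes, and Cyp2f2, Cyp3a13, Cyp4b1, Cyp4f40 and Cyp4x1, whereas none of the 10 Cyp2d or 5 Cyp2b genes was called. Cyp1b1 was the member that fell. Fitted on only the 4 arrays compared, 32 members were called, 23 higher and 9 lower. The share of all genes called in that fit was not computed, so this count cannot be set against the shares above.

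Cyp2c65, an enzyme of the arachidonic acid-oxidising Cyp2c subfamily known from the gut, had the largest rise. It read 6.66 and 7.01 in gallbladder organoids and 12.11 and 12.01 after withdrawal, a difference of 5.22 ± 0.38 (SE, limma adjusted p = 5.67e-05). The groups do not overlap. The signal after withdrawal was above both gallbladder tissue arrays (11.83 and 11.08) and inside the range of small intestine tissue (11.75 and 12.88). Cyp2c68 rose from 5.17 and 4.99 to 8.81 and 8.97, by 3.81 ± 0.24 (limma adjusted p = 2.28e-05). Cyp2c67 rose from 4.14 and 4.09 to 6.68 and 6.51, by 2.48 ± 0.43 (limma adjusted p = 0.00845). Both were low in liver organoids, at 5.25 and 4.86 for Cyp2c68 and 4.55 and 4.48 for Cyp2c67. The neighbouring gene Cyp2c66 read 6.90 and 6.98 before and 7.22 and 7.24 after withdrawal, and its difference of 0.29 was not called (95% interval -1.29 to 1.87, limma adjusted p = 0.916). A probe set annotated jointly to Cyp2c69, Cyp2c67, Cyp2c68 and Cyp2c40 read 5.34 and 5.24 before and 9.19 and 9.13 after, so signals of these close relatives may not be separable on the array. Without any single array of these 2 groups the adjusted p of Cyp2c67 was 0.0651 to 0.0837, while Cyp2c65 and Cyp2c68 stayed called without any of the 14 arrays.

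The windows around the start sites of these 4 genes of the chromosome 19 cluster are shown because 3 of them rose together and the fourth was not called. Each holds 300 bases, 250 before the start and 50 after, from RefSeq on GRCm38.p6, written 5′ to 3′ on the gene's strand. They lie at chr19:39060756-39061055 (Cyp2c65, plus strand), chr19:39113648-39113947 (Cyp2c66, plus), chr19:39648993-39649292 (Cyp2c67, minus) and chr19:39741052-39741351 (Cyp2c68, minus). Capitals mark matches, on either strand, to the letters TATAAA (the letters of a TATA box), CAAAGTCCA (a site of the HNF4 type), GTTAAT (HNF1), AGGTCA (nuclear receptors), GCGTG (Ahr) and TTGCGCAA (C/EBP).
Cyp2c65: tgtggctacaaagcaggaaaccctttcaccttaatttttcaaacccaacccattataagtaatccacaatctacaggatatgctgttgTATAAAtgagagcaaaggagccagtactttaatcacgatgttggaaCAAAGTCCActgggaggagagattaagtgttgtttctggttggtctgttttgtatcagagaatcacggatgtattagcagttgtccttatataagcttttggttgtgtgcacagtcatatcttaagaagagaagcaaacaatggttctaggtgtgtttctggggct
Cyp2c66: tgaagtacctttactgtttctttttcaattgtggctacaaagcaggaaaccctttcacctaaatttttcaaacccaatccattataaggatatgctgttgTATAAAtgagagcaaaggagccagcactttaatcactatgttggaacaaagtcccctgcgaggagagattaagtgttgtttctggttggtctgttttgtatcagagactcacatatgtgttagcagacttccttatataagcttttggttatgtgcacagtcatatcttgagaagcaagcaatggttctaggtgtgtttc
Cyp2c67: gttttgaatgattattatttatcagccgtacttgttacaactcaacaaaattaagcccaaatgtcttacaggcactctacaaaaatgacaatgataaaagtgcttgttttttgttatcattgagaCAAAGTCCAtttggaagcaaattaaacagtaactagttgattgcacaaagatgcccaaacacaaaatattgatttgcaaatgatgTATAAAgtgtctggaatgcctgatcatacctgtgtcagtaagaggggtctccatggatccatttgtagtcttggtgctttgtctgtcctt
Cyp2c68: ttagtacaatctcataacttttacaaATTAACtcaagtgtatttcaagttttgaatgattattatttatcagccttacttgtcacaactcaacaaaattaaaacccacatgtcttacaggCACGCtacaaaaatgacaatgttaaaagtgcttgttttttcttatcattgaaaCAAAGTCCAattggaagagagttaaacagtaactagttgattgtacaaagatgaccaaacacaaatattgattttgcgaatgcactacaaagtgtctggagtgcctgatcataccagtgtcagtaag
The letters CAAAGTCCA are 116 bases before the start of Cyp2c65, 125 before that of Cyp2c67 and 77 before that of Cyp2c68. They are not in the window of Cyp2c66, which holds caaagtccc at the matching place and so differs there only in the last letter. The letters TATAAA are 162, 150 and 40 bases before the starts of Cyp2c65, Cyp2c66 and Cyp2c67. The windows of Cyp2c65 and Cyp2c66 also hold tatataag nearer the start, which is not marked because the search took exact matches only. The letters CAAAGTCCA occur in 6 of the 60 windows found for 53 members (10.0%) and in 0.47% of 32851 windows of all genes. The other member windows that hold them belong to Cyp2c70, Cyp3a11 and Cyp3a16, none of which was called after withdrawal. TATAAA occurs in 36.67% of member windows and 13.62% of all, AGGTCA in 26.67% and 16.26%, GTTAAT in 6.67% and 7.1%, GCGTG in 21.67% and 32.39%, and TTGCGCAA in 0 and 0.18%. A match is a description of the letters and does not show that a factor binds.

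Cyp2f2, the enzyme that activates naphthalene in club cells of the mouse airway, rose from 7.09 and 7.29 to 11.92 and 11.59. The difference was 4.56 ± 0.24 (SE, limma adjusted p = 7.43e-06), and it was called without any single array. In liver organoids, which had not been through withdrawal, Cyp2f2 already read 12.91 and 12.40. Gallbladder tissue (13.28 and 13.95) and liver tissue (14.04 and 13.87) read higher on every array, and intestine organoids (6.68 and 6.77) read low.

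The other members called higher belong to the Cyp2j, Cyp3a and Cyp4 subfamilies. Cyp4a12a, known as the androgen-dependent hydroxylase of arachidonic acid in male mouse kidney, rose from 5.28 and 5.40 to 7.71 and 7.21, by 2.12 ± 0.20 (limma adjusted p = 0.000249), and stayed called without any array. Its close relative Cyp4a12b rose from 5.50 and 5.32 to 7.08 and 6.84. The probe sets of these near-identical genes may read each other's RNA, so which of them rose is uncertain. Cyp2j5, an epoxygenase of kidney and liver, rose by 2.19 ± 0.51 (limma adjusted p = 0.0395), from 6.51 and 6.59 to 8.68 and 8.81. Cyp2j9 rose by 1.71 ± 0.28 (limma adjusted p = 0.00695) and Cyp2j6 by 0.97 ± 0.24 (limma adjusted p = 0.0468). Cyp3a13, a Cyp3a enzyme of the gut, rose from 10.58 and 10.62 to 12.35 and 12.27. Cyp4b1, which activates protoxins in lung, rose from 9.34 and 9.12 to 10.82 and 10.85. Cyp4f40 and Cyp4x1 rose by 1.09 ± 0.23 and 0.84 ± 0.16 (limma adjusted p = 0.0238 and 0.0164). The test values of Cyp2j9, Cyp4f40 and Cyp4x1 were chosen for print after they were seen. The calls of Cyp3a13, Cyp4a12b, Cyp4f40 and Cyp4x1 were lost without any 1 of the 4 gallbladder organoid arrays, those of Cyp2j5 and Cyp2j6 also without arrays of other groups, that of Cyp2j9 without either differentiated array or undifferentiated replicate 1, and that of Cyp4b1 without either differentiated array or undifferentiated replicate 2. The adjusted p then reached 0.244 for Cyp2j5, 0.254 for Cyp2j6, 0.0877 for Cyp2j9, 0.0778 for Cyp3a13, 0.074 for Cyp4b1, 0.176 for Cyp4f40, 0.165 for Cyp4x1 and 0.175 for Cyp4a12b. Without differentiated replicate 1 or 2 there were 5 calls, and without undifferentiated replicate 1 or 2 there were 6.

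Cyp1b1, which oxidises oestrogens and polycyclic hydrocarbons outside the liver and is a target of the aryl hydrocarbon receptor, fell from 9.82 and 9.92 to 6.56 and 6.28. The difference of -3.45 ± 0.30 (SE, limma adjusted p = 0.000148) was called without any single array. Undifferentiated gallbladder organoids had the highest Cyp1b1 of the 7 groups, and the level after withdrawal was near that of intestine organoids (6.07 and 6.16). Cyp1a1, the best known target of the same receptor, read 7.63 and 7.70 before and 6.65 and 6.36 after. Its difference of -1.16 was not called (95% interval -2.27 to -0.06, limma adjusted p = 0.27), although without intestine tissue replicate 1 or 2, where Cyp1a1 read 6.54 and 8.55, the adjusted p was 0.00926. Ahr itself differed by -0.96 and was not called (limma adjusted p = 0.226).

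**Figure D2:**
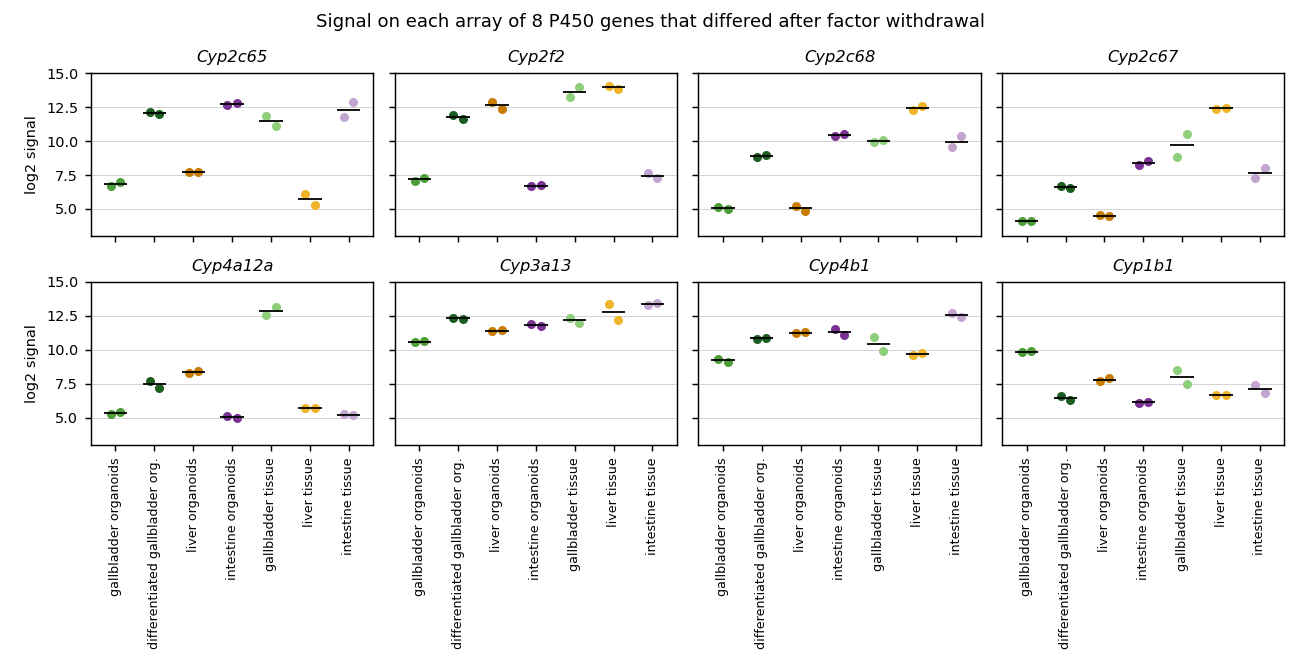
Log2 signal of 8 P450 genes called between differentiated and undifferentiated gallbladder organoids; each point is 1 array, each line the mean of the 2 arrays of a group. Cyp2c65 and Cyp2f2 reach 12.11 and 11.92 after withdrawal, Cyp2c65 is low and Cyp2f2 high in liver organoids, and Cyp1b1 is highest in undifferentiated gallbladder organoids.

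Regulators and partners of P450 enzymes were called after withdrawal at a share close to the 2.8% higher and 1.93% lower of all genes. Of 20 regulators measured, Nr1i2, the pregnane X receptor, was the one called: its mean rose from 6.87 to 8.46, by 1.59 ± 0.10 (limma adjusted p = 2.16e-05). The median difference over the regulators was 0.03. Nr0b2, the small heterodimer partner, had the larger difference of 2.32 ± 0.58 with a limma adjusted p of 0.0527, and an adjusted p of 6.69e-05 without intestine tissue replicate 1 or 2. Hnf4a read 12.18 and 12.26 on average before and after. None of 12 redox partner and haem genes was called, with a median difference of 0.15.

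Gallbladder and liver organoids, 2 cultures of the biliary tree, differed in 12 members. Relative to liver organoids, 1 member was higher in gallbladder organoids and 11 were lower, against 6.17% of all genes called higher and 6.52% lower. The median difference was -0.18 over the members and 0.05 over all genes. Fitted on only the 4 arrays compared, 30 members were called, 8 higher and 22 lower, and the share of all genes was not computed for that fit. Cyp1b1 was the higher one, by 2.07 ± 0.30 (limma adjusted p = 0.00172), with 7.69 and 7.91 in liver organoids. The largest deficit was that of Cyp2f2, at -5.46 ± 0.24 (limma adjusted p = 1.36e-06). Cyp2b10, the main phenobarbital-inducible member and a target of Nr1i3, read 6.96 and 6.79 in gallbladder organoids and 9.96 and 10.76 in liver organoids, a difference of -3.48 ± 0.56 (limma adjusted p = 0.00307). Cyp2s1, an enzyme of surface epithelia outside the liver, read 11.10 and 11.22 against 13.65 and 13.74, and Cyp4a12a read 8.28 and 8.47 in liver organoids. The remaining lower members were Cyp2g1, Cyp2j5, Cyp2j6, Cyp2j9, Cyp4a12b, Cyp4b1 and Cyp4f40. Cyp2j5 lost its call without any 1 array of these groups (adjusted p of up to 0.101), Cyp4f40 without 3 of the 14 arrays (up to 0.112) and Cyp2g1 without 9 (up to 0.278). Nr1i2 was the one regulator of 20 called, with a difference of -1.76 (limma adjusted p = 6.57e-06).

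After withdrawal, 8 members separated gallbladder organoids from liver organoids, 3 higher and 5 lower, where 3.97% of all genes were called higher and 3.8% lower. The median difference was -0.05 over the members and 0.01 over all genes. The higher ones were Cyp2c65 by 4.35 ± 0.38, Cyp2c68 by 3.83 ± 0.24 and Cyp2c67 by 2.08 ± 0.43 (limma adjusted p = 0.000152, 2e-05 and 0.0171). Cyp2b10 (7.28 and 7.63) and Cyp2s1 (11.62 and 11.80) remained below their levels in liver organoids, with differences of -2.91 and -1.99 (limma adjusted p = 0.0128 and 0.000314). Cyp1b1, at -1.38 ± 0.30, was now lower than in liver organoids (limma adjusted p = 0.0205). Cyp4a12a and Cyp4f13 were lower by less than 1 log2 unit. Cyp2f2 differed by -0.90 and was not called (95% interval -1.44 to -0.36, limma adjusted p = 0.0513), but it was called without any 1 array of gallbladder tissue (limma adjusted p = 0.0184) or intestine tissue (0.0423). Without 1 array the adjusted p reached 0.125 for Cyp2c67, 0.11 for Cyp2b10, 0.165 for Cyp1b1, 0.194 for Cyp4a12a and 0.243 for Cyp4f13. The count was 4 without differentiated replicate 1 or liver organoid replicate 1, 3 without replicate 2 of either, and 13 without gallbladder tissue replicate 1 or 2. Fitted on only the 4 arrays compared it was 25, with no share of all genes computed for that fit. The comparisons among these 3 cultures share arrays and are not independent.

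Intestine organoids held many more members at high signal than either biliary culture. Relative to them, gallbladder organoids were lower in 29 members and higher in 2, with 15.4% of all genes called lower and 20.2% higher. Liver organoids were lower in 25 and higher in 8, with 12.2% and 14.2% of all genes. The median differences were -0.63 and -0.38 over the members, and 0.11 and 0.05 over all genes. Fitted on only the 4 arrays compared, the count for gallbladder organoids was 51, with no share of all genes computed for that fit. In 24 members intestine organoids were called above both cultures, liver organoids above both others in Cyp2f2, Cyp2g1, Cyp2j5, Cyp2s1, Cyp4a12a and Cyp4a12b, and gallbladder organoids above both others in Cyp1b1 alone. No share of all genes was computed for these joint calls.

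Cyp3a11, the most abundant drug-oxidising Cyp3a enzyme of mouse liver and a target of Nr1i2, read 12.02 and 11.63 in intestine organoids. It read 4.88 and 4.60 in gallbladder organoids and 5.71 and 5.33 in liver organoids, differences of -7.09 ± 0.44 and -6.30 ± 0.44 (limma adjusted p = 1.28e-06 and 2.73e-06). Cyp2c66 read 13.35 and 13.46 in intestine organoids and at most 6.98 in undifferentiated gallbladder and liver organoids. Cyp2d26 read 13.23 and 13.17 there and at most 7.28 in those cultures, and Cyp2c29 and Cyp2c38 were lower in both by over 6 log2 units. Cyp4f14, an inactivating hydroxylase of leukotriene B4, read 12.48 and 12.54 in intestine organoids and at most 7.40 in them. Cyp2b10 formed a series of 12.88 and 13.01 in intestine organoids, 9.96 and 10.76 in liver organoids, and 6.96 and 6.79 in gallbladder organoids. Without liver organoid replicate 1 the adjusted p between intestine and liver organoids for Cyp2b10 was 0.0578. Cyp2d22, a Cyp2d enzyme expressed in many tissues, went the other way: it read 9.98 and 10.06 in intestine organoids, and was higher by 1.66 ± 0.27 in gallbladder and 1.92 ± 0.27 in liver organoids (limma adjusted p = 0.000921 and 0.000393).

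The mean of Nr1i2 was 10.39 in intestine organoids, 8.63 in liver organoids and 6.87 in gallbladder organoids. Its differences from intestine organoids were -3.51 in gallbladder and -1.76 in liver organoids (limma adjusted p = 7.85e-09 and 5.55e-07). Nr1i3, the receptor named above for Cyp2b10, had means of 9.46 in intestine, 6.64 in liver and 6.70 in gallbladder organoids. Receptor activity was not measured, and links between receptors and members were not tested. Ppara was lower too, at -3.03 in gallbladder and -2.75 in liver organoids (limma adjusted p = 0.00315 and 0.00647). Ahr was higher, by 1.53 and 1.47 (limma adjusted p = 0.00981 and 0.0147). The Ahr call in gallbladder organoids had an adjusted p of 0.0533 without gallbladder organoid replicate 1 and 0.0517 without intestine organoid replicate 1. The Ahr call in liver organoids was lost without any 1 array of the groups compared (0.0659 to 0.0784), and the Ppara call without liver organoid replicate 1 (0.0502). Of the 20 regulators, 5 were higher and 5 lower in gallbladder than in intestine organoids, and 4 were higher and 4 lower in liver organoids. All 10 enterocyte markers were called lower in both biliary cultures, with a median mean signal of 12.72 in intestine organoids, 6.76 in gallbladder organoids and 6.79 in liver organoids. Their part in the P450 differences was not tested.

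Against the tissue of origin, P450 signal was lower in liver organoids over most of the set. Of 69 members 43 were lower than in liver tissue and 7 higher, while 18.2% of all genes were called lower and 26.7% higher. The median difference was -1.46 over the members and 0.00 over all genes. Without the dimmest 40% of genes, a filter that also removes members, 32 members were called. All 6 Cyp3a members, 11 of 13 Cyp2c members, 8 of 10 Cyp2d members and both Cyp2a members were lower. Cyp2e1, the ethanol-oxidising enzyme, had a mean of 14.06 in liver tissue and read 6.16 and 5.86 in liver organoids, a difference of -8.05 ± 0.53 (limma adjusted p = 1.19e-06). Its tissue signal is near the top of the scale, so this difference may be understated. Cyp1a2, which oxidises caffeine and arylamines, read 12.74 and 12.97 in tissue and 5.30 and 5.58 in organoids. Cyp2c70, the enzyme of muricholic acid synthesis in mice, went from 13.21 and 13.43 in tissue to 5.54 and 5.40 in organoids, a difference of -7.85 ± 0.76 (limma adjusted p = 1.59e-05). Cyp4a14, a fatty acid hydroxylase under Ppara, differed by -6.72 ± 0.22 (limma adjusted p = 2.09e-08). Cyp2r1, a vitamin D hydroxylase, read 9.96 and 10.88 in tissue and 6.20 on both organoid arrays.

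A few members were higher in liver organoids than in liver tissue. Cyp2s1 read 7.63 and 7.90 in tissue and 13.65 and 13.74 in organoids, a difference of 5.93 ± 0.19 (limma adjusted p = 2.05e-08). Cyp4a12a was higher by 2.64 ± 0.20, Cyp2c65 by 2.00 ± 0.38, Cyp4a12b by 1.67 ± 0.32 and Cyp4b1 by 1.57 ± 0.27 (limma adjusted p = 3.26e-06, 0.00139, 0.00166 and 0.000721). Cyp4f16 and Cyp1b1 were higher by 1.22 and 1.12 (limma adjusted p = 0.00531 and 0.0108), and the adjusted p of Cyp1b1 was 0.0729 without liver organoid replicate 2. Cyp2f2 was lower, at -1.30 ± 0.24 (limma adjusted p = 0.0013), with the same limit of the scale at 14.04 and 13.87 in tissue. Of the hepatocyte markers without P450 genes 14 of 15 were lower in liver organoids, with a median difference of -7.57, and all 6 biliary markers were higher, with a median of 4.13, so cell type moved with the members and cannot be told apart from culture here. The regulators Nr1i3, Ppara, Nr1i2 and Cebpa differed by -4.09, -4.11, -2.51 and -2.41 (limma adjusted p = 0.00259, 0.000276, 5.28e-08 and 0.000954). In all, 12 of 20 regulators were lower and 4 higher, and 8 of 12 redox and haem genes were lower, among them Alas1 at -1.90.

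Gallbladder organoids were lower than gallbladder tissue in 37 members and higher in 4, against 15.2% of all genes called lower and 32.7% higher. The median difference was -1.57 over the members and 0.17 over all genes. Cyp3a11 read 11.79 and 13.01 in tissue and 4.88 and 4.60 in organoids, a difference of -7.66 ± 0.44 (limma adjusted p = 8.66e-07). Cyp2e1 read 12.97 and 14.16 in tissue and 6.10 and 6.28 in organoids. Of the hepatocyte markers 14 of 15 were lower in organoids too, with a median difference of -5.86, and their part in these results was not tested. Cyp2c65 and Cyp4a12a, which read at most 6.12 and 5.74 in liver tissue, were also lower in gallbladder organoids, at -4.62 ± 0.38 and -7.53 ± 0.20 (limma adjusted p = 8.39e-06 and 8.94e-09). Both liver tissue arrays had high Xist, and Cyp4a12a is known as male-biased, so its level in male liver was not measured here. For Cyp4a12a the difference was -7.83 without gallbladder tissue replicate 1 and -7.23 without replicate 2, and for Cyp2c65 it was -4.24 and -4.99. The higher members were Cyp1b1, by 1.89 ± 0.30 (limma adjusted p = 0.000603), and Cyp2w1, Cyp4f16 and Cyp4f37, each by less than 1. Without gallbladder tissue replicate 2 the adjusted p of Cyp4f16 was 0.179. Without gallbladder tissue replicate 1 that of Cyp4f37 was 0.0591. Without gallbladder tissue replicate 1 there were 49 calls and without replicate 2 there were 41.

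Intestine organoids differed from their tissue in fewer members. There were 6 members higher than in intestine tissue and 10 lower, against 20.2% of all genes called higher and 15.6% lower. The median difference was 0.05 over the members and -0.02 over all genes. Markers of several cell types were lower in organoids too: 6 of 10 enterocyte markers (median -1.15), 5 of 5 smooth muscle markers (-4.59), 5 of 5 fibroblast markers (-1.41) and 3 of 4 endothelial markers (-2.09). Their part in the P450 differences was not tested. Cyp2w1, an enzyme known from fetal and tumour colon, read 9.96 and 9.78 in organoids and 7.77 and 7.39 in tissue, higher by 2.29 ± 0.13 (limma adjusted p = 2.07e-06). Cyp2d34 was higher by 2.17 ± 0.19 and Cyp2j9 by 1.26 ± 0.28 (limma adjusted p = 2.2e-05 and 0.00576). Cyp2c38 read 9.83 and 9.98 in organoids but 3.88 and 7.20 in tissue: its difference of 4.36 ± 0.76 (limma adjusted p = 0.00133) was 6.02 without tissue replicate 2 and 2.70 without replicate 1. Cyp2c70 was higher by 3.49 ± 0.76 and Cyp2c66 by 2.71 ± 0.71 (limma adjusted p = 0.00474 and 0.0128), and the adjusted p of Cyp2c66 was 0.0554 without intestine organoid replicate 1 and 0.0664 without replicate 2. Cyp2c29 read 11.99 and 11.76 in organoids and 5.29 and 10.79 in tissue, a difference of 3.83 that was not called (95% interval 0.69 to 6.98, limma adjusted p = 0.0586). Without tissue replicate 2, the array with high acinar markers, the difference of Cyp2c29 was 6.58 (limma adjusted p = 0.000402), and without replicate 1 it was 1.08 (limma adjusted p = 0.413). Without either gallbladder tissue array its adjusted p was 0.0412.

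The lower members in intestine organoids included 4 of the 9 Cyp4f genes. Cyp4f18, a leukotriene hydroxylase of neutrophils, was lower, at -2.09 ± 0.24 (limma adjusted p = 0.000104), and 4 of 4 immune cell markers were lower too, with a median of -2.46; their part was not tested. Cyp3a25 and Cyp3a13 were lower, at -2.03 and -1.56 (limma adjusted p = 0.00833 and 0.00189), and the adjusted p of Cyp3a25 was 0.0563 without intestine tissue replicate 2 and 0.0506 without intestine organoid replicate 1. Cyp2d22, Cyp4f40 and Cyp4f16 were at -1.53, -1.49 and -1.28 (limma adjusted p = 0.00136, 0.000593 and 0.00542). Cyp3a11, at 12.02 and 11.63 in organoids against 11.47 and 12.83 in tissue, overlapped between the groups. The count of calls was 28 without gallbladder tissue replicate 1 or 2, since these arrays enter the shared variance.

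**Figure D3:**
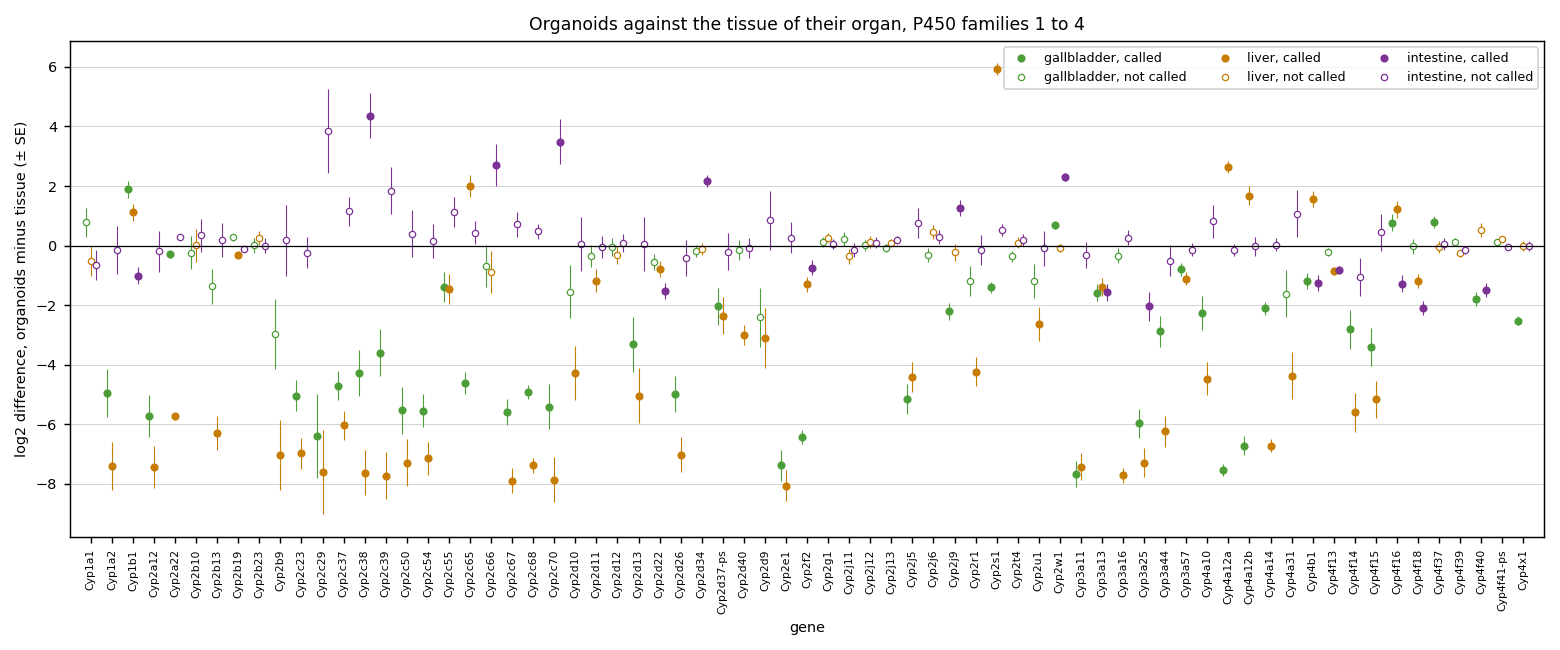
Difference in log2 signal between organoids and the tissue of their organ for the 69 P450 genes, with the standard error; green is gallbladder, orange liver and purple intestine, filled points are called at an adjusted p below 0.05 and open points are not. Gallbladder and liver points reach below -7, the intestine points lie near 0 for most genes, and Cyp2s1 stands at 5.93 in liver.

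The change from tissue to organoid differed between organs in a direct test of the difference, the interaction term of the same model. Between liver and intestine 38 members had a lower change in liver and 8 a higher one, against 16.2% and 19% of all genes. In the same term 14 of 15 hepatocyte markers were lower (median -7.10), and 5 of 6 biliary markers (4.18) and 5 of 5 smooth muscle markers (3.65) were higher, and their part was not tested. Cyp2c38 had the largest, at -11.98 ± 1.08 (limma adjusted p = 2.12e-05), made of -7.62 in liver and 4.36 in intestine. For Cyp2s1 the change was higher in liver by 5.40 ± 0.27 (limma adjusted p = 5.89e-07). Between gallbladder and liver 18 members had a higher change in gallbladder and 9 a lower one, against 22.7% and 17.1% of all genes, so the members were called at about the share of all genes. There 5 of 5 smooth muscle markers (median -4.63) and 4 of 6 biliary markers (-3.54) were lower and 6 of 15 hepatocyte markers higher (1.12), and their part was not tested. Cyp4a12a led the second set, at -10.17 ± 0.28 (limma adjusted p = 4.1e-08): its signal fell from tissue to organoid in gallbladder and rose in liver. Cyp3a16, a Cyp3a enzyme of fetal and female liver, led the first set at 7.37 ± 0.35 (limma adjusted p = 1.04e-06), with no signal above 4.42 in gallbladder tissue or organoids against 12.18 and 11.32 in liver tissue. The second count was 45 without gallbladder tissue replicate 2. The members called lower in organoids than in tissue in all 3 organs were Cyp2f2, Cyp3a13 and Cyp3a25. The intestine call of Cyp2f2 had an adjusted p of 0.192 without intestine tissue replicate 1 and 0.149 and 0.107 without intestine organoid replicates 1 and 2.

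The 3 tissues were set against each other last. Liver tissue exceeded intestine tissue in 30 members and was below it in 11, with 18.7% and 18.8% of all genes called. Gallbladder tissue exceeded liver tissue in 8 members and was below it in 30, with 20.7% and 27.4% of all genes, and it exceeded intestine tissue in 24 and was below it in 16, with 20.7% and 24.3%. The median differences were 0.51, -0.63 and 0.25 over the members, and 0.04, -0.09 and -0.04 over all genes. Fitted on only the arrays compared, 18 members were called between gallbladder and liver tissue and 20 between gallbladder and intestine tissue. Without the dimmest 40% of genes these counts were 24 and 25. The share of all genes was not computed for these settings. Cell type markers differed with the organs, and their part in the P450 differences was not tested. In gallbladder against intestine tissue 13 of 15 hepatocyte markers were higher (median 5.32) and 10 of 10 enterocyte markers lower (-6.45). In gallbladder against liver tissue 5 of 5 smooth muscle markers (4.71) and 5 of 6 biliary markers (3.17) were higher and 7 of 15 hepatocyte markers lower (-0.95). In liver against intestine tissue 14 of 15 hepatocyte markers were higher (6.83) and 8 of 10 enterocyte markers lower (-5.84). Liver tissue was called above both other tissues in 21 members and intestine tissue in 9, and no share of all genes was computed for these counts. These 9 were Cyp2b10, Cyp2c55, Cyp2c66, Cyp2j6, Cyp4b1, Cyp4f16, Cyp4f18, Cyp4f40 and Cyp4f41-ps. Cyp2b10 read 11.69 and 13.49 in intestine tissue and 10.57 and 10.13 in liver tissue.

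Gallbladder tissue was called above both other tissues in Cyp1b1, Cyp4a12a, Cyp4a12b and Cyp4x1. Cyp4a12a read 12.57 and 13.17 in gallbladder tissue, 5.73 and 5.74 in liver tissue and 5.27 and 5.19 in intestine tissue. It exceeded liver tissue by 7.13 ± 0.20 (limma adjusted p = 1.96e-08), by 7.44 without gallbladder tissue replicate 1 and by 6.83 without replicate 2. Cyp4a12b read 11.46 and 12.78 there and at most 5.95 in the other tissues. Both genes are known as male-biased, and both were high in the replicate with high Xist and in the one with high Eif2s3y. Both liver tissue arrays had high Xist, so the level of these genes in male liver was not measured. Cyp4x1, a fatty acid epoxygenase of brain, read 8.84 and 8.35 in gallbladder tissue and 6.01 to 6.48 in the others. The call of Cyp1b1 against intestine tissue (0.86 ± 0.30, limma adjusted p = 0.0384) had an adjusted p of 0.275 without gallbladder tissue replicate 1, 0.223 without intestine tissue replicate 2 and 0.0696 after centring each array on its median. Cyp2c65 and Cyp2s1 exceeded liver tissue by 5.75 ± 0.38 and 4.79 ± 0.19 (limma adjusted p = 2.47e-06 and 1.34e-07), at levels near those of intestine tissue.

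**Figure D4:**
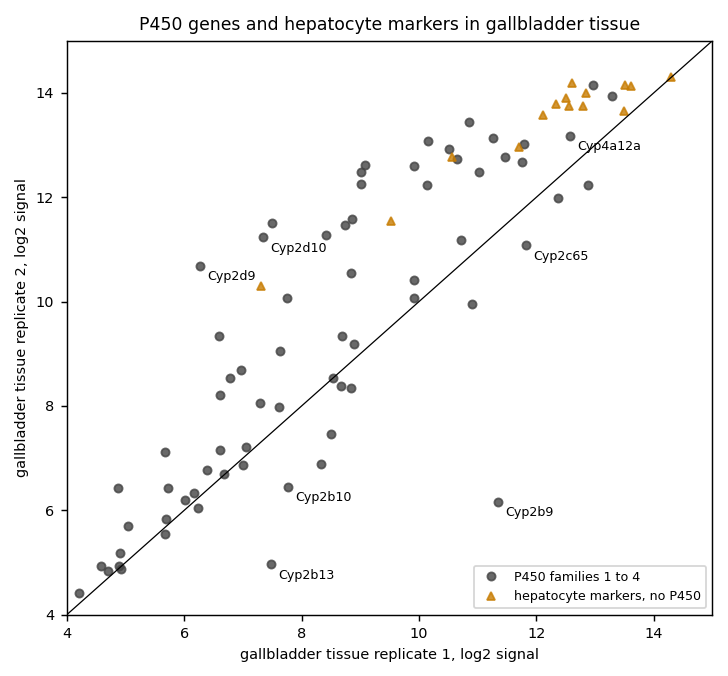
Log2 signal in gallbladder tissue replicate 1 (x axis) and replicate 2 (y axis) of the P450 genes (grey circles) and of 15 hepatocyte markers (orange triangles), with the line of equal signal. Most points lie above the line, with Cyp2d9 at 6.27 and 10.69, and Cyp2b9 lies far below it at 11.35 and 6.17.

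Within gallbladder tissue 29 members were higher in replicate 2 by over 1 log2 unit and 5 in replicate 1, so 49.28% of the members differed that much against 5.38% of all genes. Members known as sex-biased in mouse liver differed in both directions. Cyp2d9, a testosterone hydroxylase of male liver, read 6.27 in replicate 1 and 10.69 in replicate 2. Cyp2b9 and Cyp2b13, both of female liver, read 11.35 and 7.48 in replicate 1 and 6.17 and 4.97 in replicate 2. The other measured members of the female-biased list did not follow them. Cyp3a44 was higher in replicate 2, at 6.61 and 8.20, and Cyp3a16 was low in both, at 4.20 and 4.42. In liver tissue, where both arrays had high Xist, Cyp2b9 read 13.39 and 13.47 and Cyp2d9 9.02 and 8.97. Members of liver with no such bias in the list were also higher in replicate 2, such as Cyp1a2 at 9.08 and 12.62. Cyp1a2 had a mean of 10.85 in gallbladder and 12.85 in liver tissue, and the difference was not called (95% interval -3.80 to -0.20, limma adjusted p = 0.0638): it was -0.23 without replicate 1 and -3.77 without replicate 2. The deficit of Cyp2b9 in gallbladder tissue against liver tissue, -4.67 ± 1.18 (limma adjusted p = 0.00888), was -7.26 without replicate 1 and -2.08 without replicate 2. In intestine tissue 12 members were higher in replicate 2 by over 1 and 2 in replicate 1, 20.29% of the members against 4.24% of all genes.

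**Figure D5:**
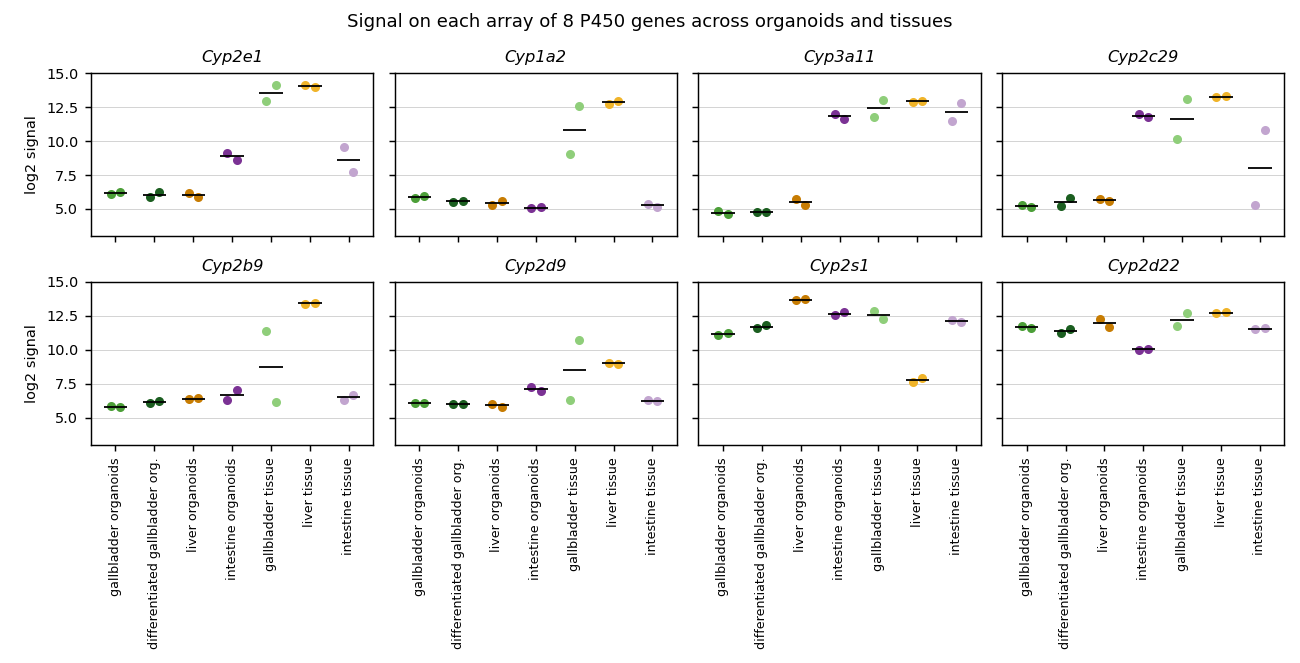
Log2 signal of 8 P450 genes on each array across the 7 groups; points are arrays and lines are group means. Cyp2e1, Cyp1a2, Cyp3a11 and Cyp2c29 are low in gallbladder and liver organoids, Cyp3a11 and Cyp2c29 are high in intestine organoids, and the gallbladder tissue points of Cyp1a2, Cyp2b9 and Cyp2d9 lie apart.

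Probe sets shared by close relatives gave values for genes outside the set. The probe set of Cyp2a5 and Cyp2a4, coumarin and steroid hydroxylases, read at most 7.18 in gallbladder organoids, 9.66 and 9.67 after withdrawal, and 11.22 and 10.58 in liver organoids. It read 12.32 and 12.92 in gallbladder tissue, 13.59 and 13.84 in liver tissue, and at most 6.45 in intestine organoids and tissue. These values were not tested.

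At the other end, 7 members were called in no comparison: Cyp1a1, Cyp2b23, Cyp2d12, Cyp2j11, Cyp2j12, Cyp2j13 and Cyp2t4. Their signals lay between 4.62 and 8.55 on every array. The share of all genes called in no comparison was not computed. No detection call was used, so it is not known which of these low signals lie above the noise of the array.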

How the data were processed

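Expression was read from the value table of the series, whose log2 signals the authors deposited after RMA, per the submitters' processing notes; the RMA version is not given in the sources used here. RMA summarises probes and equalises array distributions, so levels are compared between arrays and not between probe sets. Of 35556 probe sets, 21789 had 1 gene symbol, 1621 had several and 12146 were unlisted in the annotation. Each of 19938 genes was read by its single-symbol probe set of highest mean. limma 3.58.1 in R 4.3.3 fitted 1 mean per group on all 14 arrays, with 7 residual degrees of freedom, for 11 comparisons and 2 interactions, 2-sided. An exact permutation test of 2 against 2 arrays cannot go below p = 0.333.

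Test values are given for up to 6 called members of largest difference per direction, for a list of well-studied members, and for genes of the regulator, redox, haem and marker lists. The members and lists were chosen with earlier results of these data known. Alternatives were another normalisation, centring, a filter on dim genes, a trended robust prior, the mean of probe sets, only the arrays compared, the replicate block, and each array left out. On simulated data for gallbladder against liver organoids (19938 genes), 12, 30, 49 and 49 of 50 planted changes of 0.5, 1, 2 and 3 log2 units were recovered, with 0 false among 140 calls.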

Additional observations from a re-analysis of the deposited data

Results flagged for a closer look

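The change from tissue to organoid differed between organs, and the difference itself was tested as an interaction in limma. Between liver and intestine 46 members were called, where 19% of all genes were called higher and 16.2% lower. The change in liver was higher for Cyp2s1 (5.40), Cyp4b1 (2.81), Cyp4a12a (2.80), Cyp4f16 (2.50), Cyp1b1 (2.12) and Cyp4f40 (2.01). It was lower for Cyp2c38 (-11.98), Cyp2c29 (-11.43), Cyp2c70 (-11.34), Cyp2c39 (-9.56), Cyp2c67 (-8.60) and Cyp2e1 (-8.32), all differences in log2 units.

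Between gallbladder and liver 27 members were called, 18 higher and 9 lower, about the share of all genes (22.7% higher and 17.1% lower). The change in gallbladder was higher for Cyp3a16 (7.37), Cyp2a22 (5.44), Cyp2b13 (4.91), Cyp4a14 (4.61), Cyp2c39 (4.12) and Cyp3a44 (3.36). A higher change need not be a rise in gallbladder. In gallbladder tissue Cyp3a16 read 4.20 and 4.42 and Cyp2a22 4.91 and 5.17, against 12.18 and 11.32, and 10.56 and 10.67, in liver tissue. Cyp2b13 read 7.48 and 4.97 in gallbladder tissue. The change was lower for Cyp4a12a (-10.17), Cyp4a12b (-8.38), Cyp2s1 (-7.33), Cyp2c65 (-6.62), Cyp2f2 (-5.12) and Cyp4b1 (-2.76). With 2 arrays a group, no group was large enough to be screened for single outlying arrays.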

How the results depend on the processing

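Counts of called members stayed within 1.5 times of those reported, for all 13 comparisons, under quantile normalisation, centring and a trended robust prior. Taking the mean of a gene's probe sets could not move a member's signal, since each member has 1 single-symbol probe set, and is no check on the members. The share of all genes called was computed for the reported fit only, so the counts below have no such share beside them. With only the arrays compared, the counts were 32 (23 higher, 9 lower) after withdrawal, 30 for gallbladder against liver organoids, 51 for gallbladder against intestine organoids, 25 for differentiated gallbladder against liver organoids, 18 for gallbladder against liver tissue and 20 for gallbladder against intestine tissue. Without the dimmest 40% of genes, which also removes members, they were 32 for liver organoids against tissue, 24 for gallbladder against liver tissue, 25 for gallbladder against intestine tissue and 13 for the gallbladder and liver interaction. Without the gallbladder and intestine tissue arrays numbered 2, chosen after seeing the data, they were 24 for gallbladder and 19 for differentiated gallbladder against liver organoids, 34 for intestine organoids against tissue and 50 for that interaction.

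With 1 array left out at a time, the counts ranged from 5 to 18 after withdrawal, 9 to 16 for gallbladder against liver organoids, 27 to 41 for gallbladder and for liver against intestine organoids, 3 to 13 for differentiated gallbladder against liver organoids, 35 to 49, 44 to 52 and 12 to 28 for organoids against tissue in gallbladder, liver and intestine, 28 to 51, 37 to 45 and 40 to 50 for gallbladder against liver, gallbladder against intestine and liver against intestine tissue, and 39 to 50 and 20 to 45 for the interactions. None of the 281 single differences recomputed changed sign while called.

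Deviations from the group means gave little sign of pairing by replicate number: of 21 pairs of groups 2 were correlated above 0.1, with correlations from -0.10 to 0.14. Low correlations over all genes do not show that arrays of the same number share no animal or batch. With the replicate block the counts were 13 after withdrawal, 11, 31, 31 and 7 between organoids, 41, 49 and 17 against tissue, 37, 41 and 41 between tissues, and 45 and 26 for the interactions, each within 1.5 times.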
